A study of Mus musculus with 17 samples.

Results

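The 8 genes described here encode proteins of the vessel lining that start, restrain or dissolve a clot: Vwf, F8, Tfpi, Procr, Plat, Plau, Anxa2 and S100a10. They were chosen by name, for what their products do, from the 49585 genes counted in each library, and 26916 of those genes had at least 1 count in some library. RNA came from bone marrow endothelial cells of mice, which the protocol gates as CD45-, Ter119-, CD31+ and Sca1+ (the design text gives the gate without Sca1). Knockout (KO) animals carried Cdh5:CreERT2, a tamoxifen-inducible Cre recombinase under an endothelial promoter, and Eng f/f, a floxed allele of the Endoglin gene with loxP sites around exons 5 and 6. All animals, the wild-type (WT) ones included, are labelled as injected with tamoxifen, which the design text places at 8 weeks of age. Cells were collected 2 or 4 weeks later, at about 10 or 12 weeks of age. The labels do not say whether WT animals carried Cre or the floxed allele. The 17 libraries comprised 4 WT and 4 KO at 2 weeks and 5 WT and 4 KO at 4 weeks, each of 1 sex, named by sex and number (f1, m2). The labels do not say whether each library came from its own animal, so the p-values measure the spread between libraries.

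Endothelium normally keeps blood fluid while holding ready the means to plug a breach. Von Willebrand factor (Vwf) is stored in Weibel-Palade bodies, tethers platelets and carries coagulation factor VIII (F8) in plasma. Tissue factor pathway inhibitor (Tfpi) blocks the start of coagulation, and the endothelial protein C receptor (Procr) presents protein C for activation by thrombin bound to thrombomodulin. Tissue plasminogen activator (Plat) and urokinase (Plau) turn plasminogen into plasmin, the protease that dissolves fibrin. Annexin A2 (Anxa2) and its partner S100a10 form a heterotetramer on the cell surface that binds plasminogen and tissue plasminogen activator.

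Libraries held 26705337 to 40882715 counts at 2 weeks and 20477400 to 33726630 at 4 weeks, so that a floor of 3 counts corresponded to 0.0734 to 0.147 counts per 1000000 counts of the library (CPM). Floors cover counting error only, since amplified fragments were counted, whereas intervals of 2 SE around a fold change rest on the spread between libraries. The time points stood apart in every library: 2-week libraries had counts for 10886 to 13583 genes and 4-week ones for 15996 to 21235. The mitochondrial share of counts was 22.18% to 29.48% against 4.66% to 8.99%. The targeted gene Eng averaged, at 2 weeks, 1053 ± 252 CPM in the 4 WT libraries and 274 ± 51.8 CPM in the 4 KO libraries (SD). At 4 weeks the averages were 2587 ± 122 CPM in the 5 WT libraries and 779 ± 639.6 CPM in the 4 KO libraries (SD). Its levels did not overlap between genotypes at either time, but KO m2 at 4 weeks kept 1647 CPM. All 11 pan-endothelial markers were detected in each group; their summed level was 3828 to 6519 CPM at 2 weeks and 10013 to 13069 CPM at 4 weeks. Ptprc, which encodes CD45, was at most 2.57 CPM in 16 libraries and 15.6 CPM in the remaining one. Summed neutrophil markers reached 4202 CPM in KO m2 and 3191 CPM in KO m3 at 2 weeks, against at most 237.5 CPM in the other 15 libraries. Summed erythroid markers did not overlap between genotypes at 2 weeks, with 61.4 to 179.6 CPM in WT and 278 to 1240.3 CPM in KO. At 4 weeks they were 165 to 1272 CPM in WT (median 281) and 611 to 2893 CPM in KO (median 1917). The part of these cells in the levels of the 8 genes was not tested.

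Levels of the 8 genes spanned a wide range. Per transcript length, as transcripts per 1000000 (TPM) over union exon length, 4-week WT endothelium held S100a10 at 1483 ± 309 TPM, Anxa2 at 815 ± 197 TPM, Tfpi at 72.0 ± 34.7 TPM, Procr at 56.9 ± 16.4 TPM, Plat at 29.9 ± 7.57 TPM, Vwf at 25.2 ± 3.46 TPM, Plau at 8.35 ± 8.55 TPM and F8 at 4.81 ± 3.16 TPM (SD, n = 5). Tfpi and Procr overlapped in these libraries, as did Plat and Vwf, and Plau and F8, whereas the other neighbours in the order did not. In 4-week KO libraries S100a10 and Anxa2 again led, at 1504 ± 434 and 926 ± 169 TPM (SD, n = 4), with overlapping ranges. F8 was again last there, at 4.02 ± 1.74 TPM. At 2 weeks the order in WT began with S100a10 at 731 ± 124 TPM, Anxa2 at 388 ± 48.0 TPM and Procr at 29.9 ± 13.2 TPM (SD, n = 4), with no overlap between these neighbours, and ended with Plau, at 0 in all 4 libraries. The abundant plasminogen receptor pair thus stood above every activator, inhibitor and clotting factor gene of the set in each of the 4 groups.

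**Figure D1:**
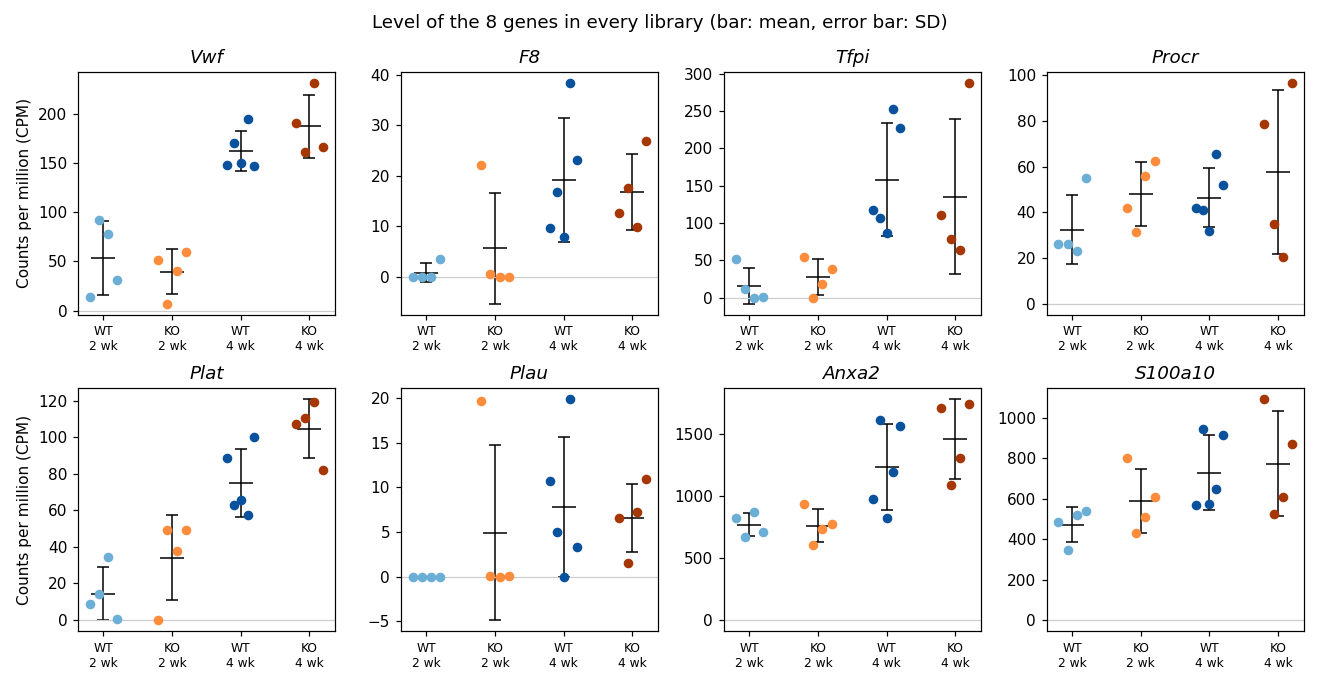
Level of each gene in every library, in CPM, for the 4 groups; points are libraries, the bar is the group mean and the error bar the SD (4 libraries per group, 5 in 4-week WT). Vwf, Tfpi and Plat sit higher at 4 than at 2 weeks in both genotypes, and WT and KO points overlap for every gene at each time.

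No gene of the set differed between genotypes beyond the spread of the libraries in edgeR's quasi-likelihood test with Benjamini-Hochberg adjustment. The same test did not call the deleted gene Eng at either time. Its log2 fold change was -1.96 (SE 0.249, adjusted p = 0.612) at 2 weeks and -1.72 (SE 0.501) at 4 weeks. Only over both time points in the joint fit was Eng called (-1.83, adjusted p = 0.0378 in edgeR). The absence of a call at a single time therefore does not show that a gene was unchanged. At 2 weeks 6 of the 8 passed the filter on low counts (F8 and Plau did not) and 0 were called. The background was 0% of 10477 genes called and 276 genes, 2.63%, at an unadjusted p under 0.05, among them 0 of the 6. DESeq2 called 149 genes and limma voom 12 in the same libraries, and neither called a gene of the set. At 4 weeks all 8 were tested and 0 were called, against 0% of 15209 genes; 422 genes, 2.77%, had an unadjusted p under 0.05, of which Plat alone was of the set. DESeq2 called 17 genes there and none of the 8. Expression of WT and KO libraries overlapped for all 8 genes at both times, where 3.36% of genes at 2 weeks and 1.19% at 4 weeks had groups that did not overlap. The median log2 fold change (KO over WT) was 0.43 over the 6 genes at 2 weeks and 0.17 over the 8 at 4 weeks, beside -0.06 and 0.01 over all genes tested.

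**Figure D2:**
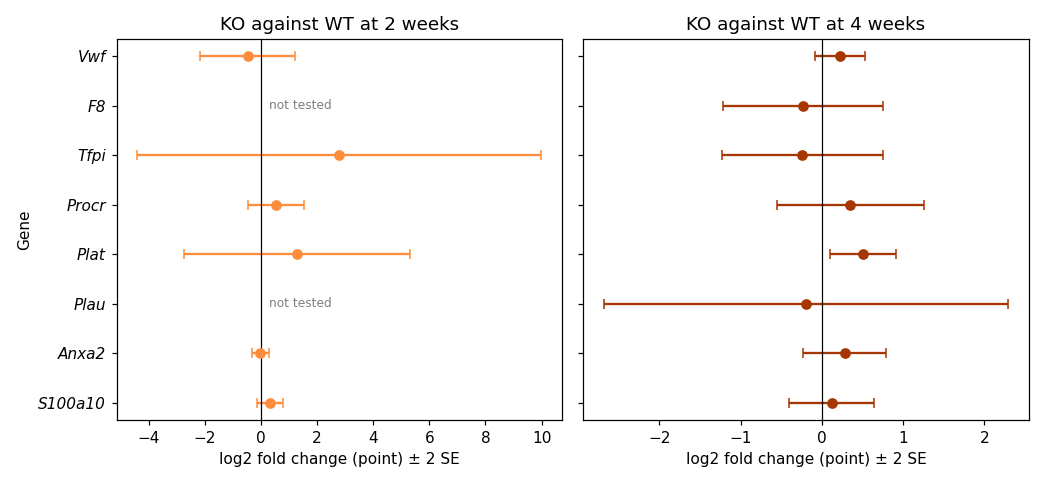
Log2 fold change of KO over WT (horizontal axis) for each gene at 2 weeks (left) and 4 weeks (right, on a narrower scale), with bars of 2 standard errors on each side. At 4 weeks the bar of Plat, at 0.50, lies to the right of 0 before any adjustment, and the bars of the other genes include 0; F8 and Plau were not tested at 2 weeks.

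Vwf, at chr6:125546774-125686679 on GRCm38, was expressed in all 17 libraries. At 2 weeks its level was 13.5, 91.8, 78.4 and 31.0 CPM in WT f1, f4, m2 and m3, and 51.3, 6.98, 40.6 and 59.7 CPM in KO f1, f4, m2 and m3. At 4 weeks it was 148, 171, 150.3, 195 and 147 CPM in WT f, f3, m1, m2 and m3, and 191, 161, 232 and 166 CPM in KO f2, m1, m2 and m3. The 2-week libraries thus varied over a wide range in both genotypes, and the 4-week libraries lay close together. The log2 fold change of KO over WT was -0.47 (SE 0.846) at 2 weeks and 0.22 (SE 0.153) at 4 weeks, with adjusted p = 1.0 for each. The 4-week interval of 2 SE ran from -0.09 to 0.52, although all 4 KO libraries were above the WT median of 150.3 CPM.

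Megakaryocytes and platelets also make Vwf, and in bulk RNA fewer cells of a type and less RNA per cell cannot be told apart. The summed level of 10 megakaryocyte and platelet markers was 11.5 to 39.0 CPM in WT and 18.7 to 41.6 CPM in KO at 4 weeks, and 3.77 to 66.5 CPM in WT and 0 to 119 CPM in KO at 2 weeks. Pf4, their platelet chemokine marker, reached at most 13.6 CPM at 4 weeks. By library at 2 weeks the sum was 66.5, 3.77, 30.7 and 6.65 CPM in WT f1, f4, m2 and m3, and 0, 119, 13.3 and 0.055 CPM in KO f1, f4, m2 and m3. The part of these cells in the Vwf level was not tested.

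F8, at chrX:75172715-75382615, was the least abundant gene of the set per length at 4 weeks. At 2 weeks it was at 0 in 5 of 8 libraries; WT m3 held 3.58 CPM, and KO f1 and f4 held 22.2 and 0.648 CPM. At 4 weeks every library expressed it, at 9.78, 16.8, 7.87, 38.4 and 23.1 CPM in WT f, f3, m1, m2 and m3, and at 12.7, 17.6, 9.86 and 26.9 CPM in KO f2, m1, m2 and m3. WT and KO overlapped throughout, with a 4-week log2 fold change of -0.24 (SE 0.491, adjusted p = 1.0 with edgeR). F8 and its plasma carrier Vwf showed no correlation past the threshold: across the 9 libraries at 4 weeks Pearson's r of log2 CPM was 0.0466 (two-sided exact permutation p = 0.906, adjusted p = 0.906 over 4 relations) and Spearman's rho 0.167 (p = 0.678), with r = 0.15 without the 2 libraries farthest from the median. Within genotype r had opposite signs, 0.724 in 5 WT and -0.858 in 4 KO libraries, as descriptions of few libraries. At 2 weeks r was -0.163 (exact permutation p = 0.714, adjusted p = 0.906) and rho -0.382 (p = 0.351) over 8 libraries, and r was -0.51 without 2. Lman1 and Mcfd2, whose products carry factor VIII out of the endoplasmic reticulum, averaged 98.8 ± 30.0 and 133 ± 12.6 CPM at 4 weeks in WT, and 84.6 ± 36.5 and 149.7 ± 28.7 CPM in KO (SD over 5 and 4 libraries).

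Tfpi, at chr2:84432855-84476775, had a larger SD between libraries at 4 weeks than Procr, at 75.9 against 12.8 CPM in WT and 103 against 35.8 CPM in KO (n = 5 and 4). Relative to the mean level of each gene, the SD was 48.0% against 27.6% in WT and 76.4% against 62.2% in KO. At 2 weeks it was 51.0, 10.8, 0 and 0.954 CPM in WT f1, f4, m2 and m3, and 54.6, 0, 17.7 and 38.8 CPM in KO f1, f4, m2 and m3. At 4 weeks it was 117, 107, 86.4, 253 and 227 CPM in WT f, f3, m1, m2 and m3, and 111, 78.3, 64.4 and 288 CPM in KO f2, m1, m2 and m3. WT m2, WT m3 and KO m3 stood above the other 6 at 4 weeks, and the genotypes overlapped. The log2 fold change of KO over WT was 2.79 (SE 3.60) at 2 weeks and -0.24 (SE 0.495) at 4 weeks, both with adjusted p = 1.0 in edgeR.

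Procr, at chr2:155751117-155755471, was detected in all 17 libraries. At 2 weeks it was 25.9, 26.0, 22.9 and 54.8 CPM in WT f1, f4, m2 and m3, and 41.8, 31.3, 55.6 and 62.5 CPM in KO f1, f4, m2 and m3, so that all 4 KO libraries were above the WT median but overlapped with WT m3. At 4 weeks WT libraries held 41.9, 41.0, 31.7, 65.4 and 51.8 CPM (f, f3, m1, m2, m3) and KO libraries 78.5, 34.7, 20.6 and 96.5 CPM (f2, m1, m2, m3). The KO libraries at 4 weeks included both the lowest and the 2 highest values of the 9. Log2 fold changes were 0.54 (SE 0.496, interval -0.46 to 1.53) at 2 weeks and 0.35 (SE 0.454, interval -0.56 to 1.26) at 4 weeks, with adjusted p = 1.0 in edgeR for both. Thbd, the thrombomodulin gene whose product works with Procr, had a 4-week level of 636 ± 198 CPM in WT and of 380 ± 166 CPM in KO (SD over 5 and 4 libraries). Its log2 fold change of -0.83 (SE 0.288) had an unadjusted p of 0.0184 and an adjusted p of 1.0 in edgeR, and its groups overlapped. KO f2 and m3 held 231 and 242 CPM of Thbd, and KO m1 and m2 held 522 and 525 CPM. KO f2 and m3 belong to a set of 4 libraries described below, with 231 to 523 CPM of Thbd against 522 to 950 CPM in the other 5. The part of that set in the Thbd difference was not tested.

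Tfpi and F8 were highest in the same 3 of the 4-week libraries, as was Selp, the gene of the Weibel-Palade body adhesion molecule P-selectin. WT m2, WT m3 and KO m3 held 227 to 288 CPM of Tfpi against 64.4 to 117 CPM in the other 6, 23.1 to 38.4 CPM of F8 against 7.87 to 17.6 CPM, and 88.6 to 146 CPM of Selp against 21.2 to 54.5 CPM. Procr (51.8 to 96.5 against 20.6 to 78.5 CPM) and Vwf (147 to 195 against 148 to 232 CPM) did not separate these 3 libraries. After subtraction of group means, r over the 9 libraries was 0.83 for F8 with Tfpi, 0.85 for Tfpi with Procr and 0.64 for F8 with Procr, as descriptions of libraries that share their sorting and preparation. Over all 17 libraries these values were lower, at -0.02 for F8 with Tfpi, 0.31 for Tfpi with Procr and 0.22 for F8 with Procr. The same 3 libraries did not stand apart in summed arterial markers (1229 to 1269 CPM against 1183 to 1380 CPM in the other 6) or sinusoidal markers (581 to 1080 against 374 to 1018 CPM).

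The promoters of Tfpi and of the 2 genes set beside it above, F8 and Procr, are shown from RefSeq on GRCm38.p6, each with 250 bases before and 50 after the annotated start, 5′ to 3′ on the gene's strand, with GGAA or TTCC, the ETS core on either strand, in capitals. RefSeq windows were found for 4 of the 8 genes, with 2 for Tfpi, of which the one nearer the GENCODE start is printed.
Tfpi, chr2:84476710-84477009, minus strand: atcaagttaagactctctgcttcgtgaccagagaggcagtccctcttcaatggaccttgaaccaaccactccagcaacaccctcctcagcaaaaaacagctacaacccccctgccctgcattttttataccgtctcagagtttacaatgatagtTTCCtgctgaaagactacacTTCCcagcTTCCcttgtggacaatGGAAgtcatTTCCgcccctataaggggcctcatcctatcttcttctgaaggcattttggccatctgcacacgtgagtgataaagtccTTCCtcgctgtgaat
F8, chrX:75379992-75380291, minus strand: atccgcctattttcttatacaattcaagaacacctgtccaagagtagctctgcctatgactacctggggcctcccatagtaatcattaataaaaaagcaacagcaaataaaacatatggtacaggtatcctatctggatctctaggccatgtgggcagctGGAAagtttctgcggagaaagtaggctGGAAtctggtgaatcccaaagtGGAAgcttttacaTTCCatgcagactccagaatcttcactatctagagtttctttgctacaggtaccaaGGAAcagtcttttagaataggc
Procr, chr2:155750967-155751266, plus strand: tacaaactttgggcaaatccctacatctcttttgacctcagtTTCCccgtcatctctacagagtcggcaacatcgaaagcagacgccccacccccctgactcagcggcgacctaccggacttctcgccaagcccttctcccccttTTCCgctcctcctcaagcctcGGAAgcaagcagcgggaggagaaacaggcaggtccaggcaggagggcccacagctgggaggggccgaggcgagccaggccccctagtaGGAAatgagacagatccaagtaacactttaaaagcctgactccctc
The Tfpi start lies 16 bases inside the GENCODE gene, the F8 start 2574 and the Procr start 100 bases inside. The ETS core occurs 6 times in the printed Tfpi window, 5 times in the F8 window, 4 times in the Procr window and 4 times in the other Tfpi window, and at least once in 96% of the 32851 promoters of this length, with a median of 3. TATAAA or its reverse complement occurs once in the printed Tfpi window, in none of the other 3 and in 13.6% of promoters. GGGCGG or its complement occurs once in each Tfpi window, not in those of F8 and Procr, and in 35.7% of promoters. These matches describe letters only.

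Plat, at chr8:22757727-22782844, was the gene of the set with the smallest unadjusted p between genotypes at 4 weeks. At 2 weeks it was 8.74, 13.8, 34.3 and 0.159 CPM in WT f1, f4, m2 and m3, and 0, 49.2, 37.3 and 49.3 CPM in KO f1, f4, m2 and m3. At 4 weeks it was 88.3, 62.9, 65.7, 57.0 and 100.2 CPM in WT f, f3, m1, m2 and m3 (74.8 ± 18.5, SD, n = 5), and 107, 110.2, 119 and 81.7 CPM in KO f2, m1, m2 and m3 (105 ± 16.1, SD, n = 4). All 4 KO libraries at 4 weeks were above the WT median, but WT f and m3 were above KO m3. The highest value was in KO m2, the KO library that kept 1647 CPM of Eng. The log2 fold change at 4 weeks was 0.50 (SE 0.204, interval 0.09 to 0.91), with an unadjusted p of 0.0368 and an adjusted p of 1.0 in edgeR; fits that each lacked 1 library gave 0.40 to 0.69, and the unadjusted p stayed under 0.05 in 3 of 9 such fits. At 2 weeks it was 1.28 (SE 2.01, adjusted p = 1.0), and the difference between the effects at 4 and 2 weeks was -0.89 (SE 1.74, adjusted p = 1.0).

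Plau, at chr14:20836660-20843385, was at 0 in all 4 WT libraries at 2 weeks. Among the 2-week KO libraries f1 held 19.6 CPM, from 524 counts, while f4, m2 and m3 had 1, 0 and 2 counts. At 4 weeks it was 10.8, 4.97, 0, 19.9 and 3.27 CPM in WT f, f3, m1, m2 and m3, and 6.54, 1.57, 7.25 and 10.9 CPM in KO f2, m1, m2 and m3. The joint fit of all 17 libraries gave a log2 fold change over both time points of 4.83 (SE 1.78, unadjusted p = 0.0201, adjusted p = 0.335) and a difference between the effects at 4 and 2 weeks of -9.67 (SE 3.68, adjusted p = 0.416). DESeq2 called both, with adjusted p = 0.0366 and 0.0346, among 1004 and 929 genes it called in these contrasts; over all alternatives the adjusted p ran up to 0.866 and 1.0. All but 3 of the 2-week counts of Plau are in KO f1. Without that library the value over both time points was 1.51 (SE 0.936) and the difference of effects -3.41 (SE 1.97, unadjusted p = 0.114), and voom gave 2.11 and -2.33. With the 2-week WT group at 0, the sizes of these fitted values depend on the prior count and are no bounds. That library also held the highest F8 of its time, at 22.2 CPM, and Plat at 0. In edgeR 0.0962% and 0.104% of 13515 genes were called in these 2 contrasts, with 0 of the 8 among them.

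Plaur, which encodes the urokinase receptor, had a 4-week level of 74.1 ± 27.1 CPM in WT and of 71.3 ± 26.8 CPM in KO (SD over 5 and 4 libraries). It was detected in all 8 libraries at 2 weeks. For Plaur, KO over WT at 4 weeks gave a log2 fold change of -0.05 (SE 0.314), with adjusted p = 1.0 in edgeR.

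Anxa2, at chr9:69453620-69491795, was abundant in every library. At 2 weeks it was 820, 670, 874 and 712 CPM in WT f1, f4, m2 and m3, and 931, 607, 734 and 769 CPM in KO f1, f4, m2 and m3. The 4-week level was 976, 1613, 823, 1194 and 1560 CPM in WT f, f3, m1, m2 and m3, and 1707, 1084, 1302 and 1742 CPM in KO f2, m1, m2 and m3. The KO range enclosed the WT range at 2 weeks, and at 4 weeks the 2 highest values were KO and the 2 lowest WT. The log2 fold change was -0.01 (SE 0.149, interval -0.31 to 0.28) at 2 weeks and 0.28 (SE 0.255, interval -0.23 to 0.79) at 4 weeks, with adjusted p = 1.0 in edgeR. An exon of Anxa2 overlaps the antisense gene Gm16144, and whether counting used strand is not given in the sources used here.

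S100a10, at chr3:93555080-93564643, was 486, 346, 519 and 537 CPM in WT f1, f4, m2 and m3 and 801, 433, 508 and 608 CPM in KO f1, f4, m2 and m3 at 2 weeks. The 4-week level was 567, 947, 571, 647 and 914 CPM in WT f, f3, m1, m2 and m3, and 1092, 525, 607 and 870 CPM in KO f2, m1, m2 and m3. A gap from 647 to 870 CPM divided the 4-week libraries into 5 lower and 4 higher ones, with 2 KO libraries on each side. The log2 fold change of KO over WT was 0.32 (SE 0.230) at 2 weeks and 0.12 (SE 0.261) at 4 weeks, with adjusted p = 1.0 in edgeR.

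Anxa2 and S100a10 were correlated across the 4-week libraries. Across the 9 libraries at 4 weeks Pearson's r of log2 CPM was 0.881 (two-sided exact permutation p = 0.00386, adjusted p = 0.0155 over 4 relations) and Spearman's rho 0.817 (exact permutation p = 0.0108), and r was 0.941 without the 2 libraries farthest from the median. Within genotype r was 0.954 in 5 WT and 0.939 in 4 KO libraries, as descriptions of few libraries. Both genes divided these libraries into the same sets of 4 and 5. Anxa2 was 1560 to 1742 against 823 to 1302 CPM, and S100a10 870 to 1092 against 525 to 647 CPM. Each genotype had libraries in both sets, so these values of r all span that division. KO m3 held the most Anxa2 but the least S100a10 of the higher set. No correlation was computed within either set, so covariation within a set was not tested. Across the 8 libraries at 2 weeks r was 0.731 (exact permutation p = 0.0367, adjusted p = 0.0734) and rho 0.667 (p = 0.0831), and r fell to 0.51 (exact permutation p = 0.301) without KO f1 and f4.

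**Figure D3:**
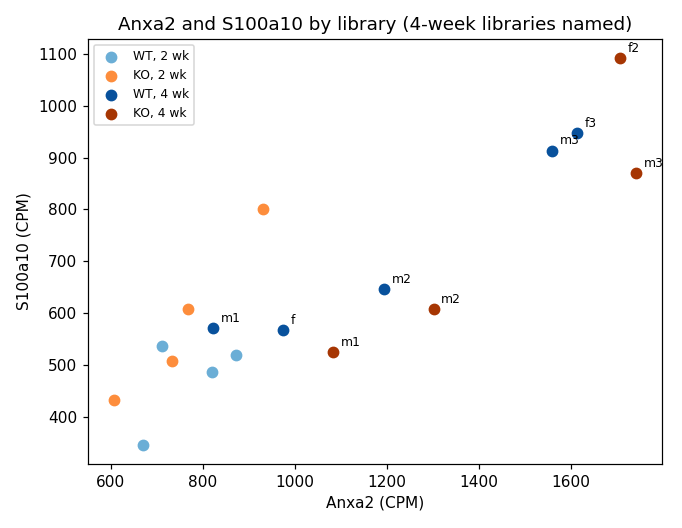
Anxa2 (horizontal axis) against S100a10 (vertical axis) in CPM for the 17 libraries, coloured by group, with 4-week libraries named. WT f3, WT m3, KO f2 and KO m3 lie at the upper right, with 1560 to 1742 CPM of Anxa2 and 870 to 1092 CPM of S100a10.

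The 4 libraries highest in both genes at 4 weeks were also those with the lowest mural marker sum. WT f3, WT m3, KO f2 and KO m3 held 718 to 940 CPM of 5 summed mural markers (Acta2, Rgs5, Myh11, Cspg4 and Tagln), against 1310 to 2913 CPM in the other 5. This sum mainly follows Rgs5, at 326 to 2336 CPM in WT and 284 to 1615 CPM in KO. Tagln was 156 to 235 CPM in WT and 145 to 230 CPM in KO. Acta2 was 84.0 to 264 CPM in WT and 171 to 281 CPM in KO. Summed mesenchymal stromal markers were 893 to 1254 against 2100 to 3095 CPM, and summed sinusoidal endothelial markers 374 to 614 against 809 to 1080 CPM, in the same 2 sets. Arterial markers overlapped, at 1229 to 1269 against 1183 to 1380 CPM, as did pan-endothelial markers, at 10013 to 11550 against 10967 to 13069 CPM. Most of the stromal sum was Cxcl12, at 1096 to 2803 CPM in WT and 818 to 2595 CPM in KO. In the sinusoidal sum Il6st spanned 106 to 616 CPM in WT and 128 to 554 CPM in KO. Stab1, of the same list, was 70.4 to 209 CPM in WT and 102 to 107 CPM in KO. A divided sum therefore does not mean that every marker in it divided the sets. Ly6a, which encodes the Sca1 antigen of the gate, also divided the sets, at 2683 to 2990 against 1930 to 2326 CPM, and so did Lman1, at 50.2 to 91.5 against 92.5 to 134.5 CPM. Over all genes, the chi-square of counts per degree of freedom was lowest in each genotype for the pair within the set of 4: 57.7 for WT f3 with m3, against 84.8 to 174.6 for the other WT pairs, and 44.1 for KO f2 with m3, against 79.3 to 168 for the other KO pairs. These libraries thus stood apart in more than Anxa2 and S100a10, and the part of other cells and of the sort in the levels of both genes was not tested. With the mural sum as a further term, the 4-week log2 fold change of KO over WT was 0.19 (SE 0.180) for Anxa2 and 0.01 (SE 0.145) for S100a10.

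**Figure D4:**
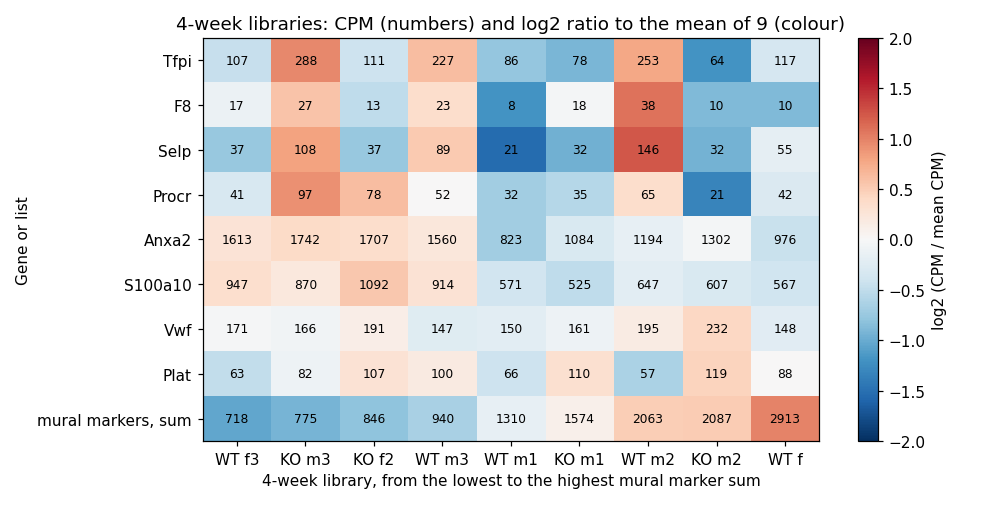
Levels in the 9 libraries at 4 weeks, ordered by summed mural markers; numbers are CPM and the colour is the log2 ratio to the mean of the 9. Anxa2 and S100a10 are highest in the 4 libraries on the left, whereas Tfpi, F8 and Selp are highest in KO m3, WT m3 and WT m2.

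The Anxa2 promoter is shown from the same RefSeq table with the same capitals, for the gene of the plasminogen receptor pair that has a window there.
Anxa2, chr9:69453433-69453732, plus strand: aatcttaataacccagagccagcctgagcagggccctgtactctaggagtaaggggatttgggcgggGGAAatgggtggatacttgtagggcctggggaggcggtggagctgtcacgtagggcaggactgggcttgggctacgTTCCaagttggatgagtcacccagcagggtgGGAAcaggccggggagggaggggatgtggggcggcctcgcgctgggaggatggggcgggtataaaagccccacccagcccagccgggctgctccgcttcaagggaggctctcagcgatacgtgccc
This window is 63.7% G or C, against 58.3% for Procr, 48% and 52.3% for the 2 windows of Tfpi and 42.3% for F8. It holds GGGCGG or its complement 3 times, TATAAA or its complement once and the ETS core 3 times.

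Between the time points, levels of the set were higher at 4 than at 2 weeks in most libraries, but no gene of the set passed the adjusted threshold in edgeR. In WT 0 of 8 were called, where 8.04% of 13515 genes were, and in KO 0 of 8, where 7.56% were. Levels were higher at 4 weeks without overlap for Vwf, F8, Tfpi, Plat and S100a10 in WT, 5 of 8 against 17.4% of all genes, and for Vwf, Tfpi, Plat and Anxa2 in KO, 4 of 8 against 21.6%. The median log2 fold change of the 8 was 1.71 in WT and 1.07 in KO, beside 0.27 and 0.34 over all genes tested. The time of collection cannot be told apart from the number of genes detected and the mitochondrial share, which separate the same libraries. Of the 11 pan-endothelial markers, 5 were called higher at 4 weeks in WT and 6 in KO, Pecam1 by 1.18 (SE 0.163) and Cdh5 by 1.11 (SE 0.143) on the log2 scale in WT.

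Vwf averaged 53.7 ± 37.4 CPM at 2 weeks (SD, n = 4) and 162 ± 20.7 CPM at 4 weeks (SD, n = 5) in WT, and 39.6 ± 23.1 and 187 ± 32.2 CPM in KO (SD, n = 4 each). The log2 fold change of 4 over 2 weeks was 1.29 (SE 0.550, adjusted p = 0.217) in WT and 1.90 (SE 0.581, adjusted p = 0.0631) in KO with edgeR. In KO the adjusted p was between 0.00632 and 0.0477 in 6 of 25 alternative fits, among them DESeq2 and voom, and above 0.05 in the others, up to 0.166 without 4-week KO f2. For Anxa2 in KO the log2 fold change was 0.65 (SE 0.235, adjusted p = 0.12 with edgeR, 0.0305 with DESeq2, 0.356 with voom), and over 25 alternatives the adjusted p ran from 0.0305 to 0.391. DESeq2 called 2144 genes in this contrast. In WT the log2 fold change of Anxa2 was 0.39 (SE 0.222, adjusted p = 0.434 with edgeR). For F8 in WT it was 4.17 (SE 2.50, adjusted p = 0.477), with adjusted p up to 0.66 over 23 alternatives. Voom gave F8 7.18 (adjusted p = 0.0347). Without the 2-week WT library m3, the only one of its group with an F8 count, edgeR gave 12.67 (SE 3.38, adjusted p = 0.0425), a fitted value against a group at 0 that depends on the prior count and is no bound. Plat in WT had 2.13 (SE 1.27, adjusted p = 0.472), and Tfpi 3.50 (SE 1.82, adjusted p = 0.366). Values in KO were lower, at 1.24 (SE 1.28, adjusted p = 0.793) for Plat and 2.14 (SE 1.60, adjusted p = 0.636) for Tfpi with edgeR. For F8 in KO edgeR gave 0.90 (SE 2.68, adjusted p = 0.958) and voom 7.18 (adjusted p = 0.0286). Plau in WT averaged 7.78 CPM at 4 weeks, at least 96.0-fold higher than the mean floor of 3 counts per library at 2 weeks, with an adjusted p of 0.0614 in edgeR and 3.63e-05 in DESeq2, which called 2090 genes, and up to 0.123 over 23 alternatives. Without WT m2 that bound for Plau was 58.6-fold, and WT m1 was at 0. Procr had the smallest fold change of the 8, 0.18 (SE 0.471) in WT and -0.04 (SE 0.497) in KO, although its mean CPM was 1.43 and 1.20 times higher at 4 weeks; CPM is taken over library totals and the fold change after scaling.

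A wider list of 77 haemostasis genes, of which 76 were in the files, showed no genotype call either. At 2 weeks 40 were tested and at 4 weeks 53, with 0 called by edgeR; their median log2 fold changes were 0.12 and -0.05, beside -0.06 and 0.01 over all genes. An unadjusted p under 0.05 was reached by 3 of the 40 (7.5%) and 4 of the 53 (7.55%), above the 2.63% and 2.77% of all genes tested. In the joint fit 10 of 51 (19.6%) reached it over both time points, 5 in each direction, against 11.1% of all genes, and 4 of 51 (7.84%) for the difference of effects, against 9.48%. The list was chosen with earlier results of these data known, so these shares are descriptions. The smallest p-values at 2 weeks belonged to Tgm2, a transglutaminase, at -0.41 (SE 0.109), Ece1, the endothelin-converting enzyme, at -0.68 (SE 0.230), and Thbs1, thrombospondin 1, at 6.04 (SE 2.36). At 4 weeks they belonged to Angpt2, a Weibel-Palade body cytokine, at 1.52 (SE 0.273, adjusted p = 1.0), Gas6, at 0.60 (SE 0.200), and Thbd. Angpt2, stored with Vwf, had a 4-week level of 54.6 ± 14.6 CPM in WT and of 154 ± 34.0 CPM in KO (SD over 5 and 4 libraries), where Vwf was 162 ± 20.7 and 187 ± 32.2 CPM. F3, the tissue factor gene that starts coagulation and that Tfpi opposes, was at 0 in all 8 libraries at 2 weeks and at most 1.14 CPM at 4 weeks. F5, for factor V, was at most 0.56 CPM in any library, and Adamts13, for the protease that trims Vwf multimers, at most 0.0379 CPM.

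Between time points 51 genes of the wider list were tested; 6 were called higher at 4 weeks in WT and 0 lower, where 8.04% of all genes were called, and in KO 4 were higher and 1 lower, where 7.56% were. These calls amount to 11.8% and 9.8% of the 51. Levels were higher at 4 weeks without overlap for 20 of the 51 (39.2%) in WT, against 17.4% of all genes, and for 18 (35.3%) in KO, against 21.6%. Nothing particular to the list is read from these shares. In WT, Thbd rose by 1.37 (SE 0.291, adjusted p = 0.0104 with edgeR) and Plaur by 1.58 (SE 0.424, adjusted p = 0.0350), and Mmrn2, Thbs1, Klf4 and Tfpi2 also rose. In KO, Mmrn2, Klf4, Klf2 and Nt5e rose and Rab3d fell. The median log2 fold change of the list was 0.67 in WT and 0.83 in KO, beside 0.27 and 0.34 over all genes. Klf2 and Klf4 encode flow-responsive transcription factors, and Klf4 rose by 1.51 (SE 0.353) in WT and 2.16 (SE 0.376) in KO.

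Likeness to other genes was measured as Pearson's r of log2 CPM over the 17 libraries after subtraction of group means, among about 5102 genes with a mean log2 CPM of at least 4. Anxa2 was most like S100a10 (r = 0.887), Capg (0.85) and Gm10123 (0.835), and S100a10 was most like Pdlim4 (0.938), Anxa2 (0.887) and Capg (0.873). Vwf was most like Tor1aip2, Plrg1 and Gtf2e2 (r of 0.945 to 0.951), Tfpi most like Fmo5, Gapvd1 and Aagab (0.934 to 0.951), and Plat most like Nfkb2, Atf1 and Tmem173 (0.958 to 0.975). F8 was most like Cisd2, Kars and Gna11 (0.784 to 0.866), Procr most like Prcp, Tecr and Tmbim4 (0.753 to 0.784), and Plau most like Mgst3, Alg14 and Eif4e2 (0.792 to 0.851). F8 and Plau lay under the minimum level and could not appear as nearest genes. Of the other members, Anxa2 and S100a10 were the only 2 to appear among each other's 3 nearest genes. These libraries share sorting, depth and preparation, and each value is among the highest of about 5102, so the values are descriptions. For F8, Tfpi, Plat and Plau they also include 2-week libraries at 0. Such libraries can move r: F8 with Plat was at -0.90 over the 17 libraries and at -0.39 over the 9 at 4 weeks.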

How the data were processed

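RNA of sorted bone marrow endothelial cells was sequenced with SmartSeq2 in 17 libraries. The deposited values are whole read counts for every gene, not normalized, in a separate table for each library. The submitters' processing notes name cutadapt, STAR, HTSeq 0.6.1p1, GRCm38 and mm10; annotation release, strand setting and other options are not given in the sources used here. Symbols and positions came from GENCODE M21, which matched 49326 of 49585 identifiers.

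Groups follow the labels for genotype and time. Counts were tested with edgeR 4.0.16 in R 4.3.3 (filterByExpr, TMM scaling, quasi-likelihood fit, sex as a term), each time point alone for KO against WT and all 17 libraries together for time and for the difference between effects. P-values were adjusted by Benjamini-Hochberg over all genes of a fit, threshold 0.05. The standard error was derived from the F statistic. Log2 CPM for correlations used a prior count of 2. Replicate files were compared and none was a duplicate of another. The code was tested on simulated data.

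Alternatives were DESeq2 1.42.0, limma 3.58.1 voom, other scalings and filters, no sex term, a replicate block, and leaving out libraries. A mural marker term was added after the data were seen. The members, lists and tests were chosen with earlier results of these data known. Genes named are the 8, the deleted and sorting genes, set partners, the wider-list genes that passed (up to 5, or the 3 smallest p-values), and the 3 most like each member. 1 set partner is not reported here. Plaur is named as a set partner, and the groups of libraries at 4 weeks and the Tfpi, F8 and Selp pattern were described after their values were seen.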

Additional observations from a re-analysis of the deposited data

Results flagged for a closer look

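For the 8 genes, 31 of 32 groups of libraries had any expression, and 4 of them held a library whose gap to the next value exceeded Dixon's 95% limit. Chance gives about 1 in 20 for values that are roughly normal, which those with libraries at 0 are not; in 1 group, F8 in 2-week WT, 3 of 4 libraries were at 0, so the remaining one exceeds the limit by construction. All 4 are at 2 weeks. F8 was 3.58 CPM in WT m3 and 0 in the other 3 WT libraries. F8 was 22.2 CPM in KO f1, with 0.648 CPM next. Procr was 54.8 CPM in WT m3, with 26.0 CPM next. Plau was 19.6 CPM in KO f1, with 0.055 CPM next. The cause was not tested.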

How the results depend on the processing

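Of 1041 alternative values for the 8 genes, 980 kept direction and side of the threshold, 17 passed the threshold where the reported value did not and 44 changed sign. None of the 8 was called in the reported values, so no call could be lost. The cause of these changes was not tested. The 17 concerned Plau with DESeq2 over both time points and for the difference of effects, Plau and F8 between times in WT, and Vwf, F8 and Anxa2 between times in KO.

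Genes called moved most with DESeq2: 149 at 2 weeks, 17 at 4 weeks, 929 for the difference of effects, 1004 over both times, 2090 between times in WT and 2144 in KO. Voom called 12 at 2 weeks and 9 for the difference; the fit of all 17 libraries called 33 at 2 weeks. Without a low-count filter the difference, both times, WT time and KO time gave 6, 8, 580 and 567 calls, and with at least 10 counts in every library 0, 3, 639 and 626. Without a sex term 30 were called over both times. Without the 2-week KO libraries m2 and m3, 278 were called for the difference and 325 over both times. Leaving out each library gave 7 (without 4-week WT m3) to 52 (without 2-week KO m2) calls for the difference, 5 (without 4-week KO f2) to 62 (without 2-week KO m2) over both times, 520 (without 4-week WT f) to 1398 for WT time and 604 (without 4-week KO f2) to 1300 for KO time. The correlation of Anxa2 with S100a10 at 2 weeks was 0.51 without 2 libraries and 0.544 to 0.797 without each; that of Vwf with F8 at 4 weeks was -0.205 to 0.476.

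Sign changes of log2 fold changes were as follows. At 2 weeks Tfpi was -0.26 without KO m2 and m3, and Anxa2 was 0.0574 with upper quartile scaling, 0.0011 with voom, 0.0054 in the fit of all libraries and 0.0057 without KO m2 and m3. At 4 weeks Plau was 0.4828 with voom and 0.1694 with the mural term, and S100a10 was -0.0835 in males. F8 was 0.0019 (difference) and -0.0972 (both times) with voom, and Procr 0.187 (difference) without KO m2 and m3. In KO between times, leaving out m2 and m3 gave F8 -0.9272, Procr 0.3447 and Plau -0.7416, and Procr was 0.0172 with at least 10 counts. Leaving out each library gave, at 2 weeks, Vwf -1.01 to 0.36, Plat -0.13 to 2.65 and Anxa2 -0.1385 to 0.0855. At 4 weeks it gave F8 -0.49 to 0.14, Tfpi -0.86 to 0.0081, Procr -0.14 to 0.63, Plau -0.59 to 1.29 and S100a10 -0.072 to 0.2927. For the difference it gave F8 -10.29 to 1.29 and Procr -0.6402 to 0.0843; over both times Vwf -0.26 to 0.13 and F8 -0.88 to 5.06. Between times it gave Procr -0.0036 to 0.60 in WT, Procr -0.47 to 0.26 in KO and S100a10 -0.17 to 0.26 in KO.

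The labels share replicate numbers but same-numbered libraries correlated only at -0.0235 to 0.0495 at 2 weeks and 0.0233 to 0.195 at 4 weeks, so they were not taken as pairs. The same number was still the best match for f1 at 2 weeks and for m2 and m3 at 4 weeks. A replicate block left 0 genes called at both times; in 4-week males it gave Procr -0.1847, Plau 1.7719 and S100a10 -0.0896. In these males the SE with the block was 0.105 for Anxa2 and 0.0983 for S100a10, against 0.292 and 0.275 without it. The SE was also lower with the block for Vwf, Tfpi and Procr, and higher for F8, Plat and Plau. At 2 weeks, F8 and Plau counts were too low to test.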
